A study of Homo sapiens with 12 samples.

Results

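AP-1 is a family of dimeric transcription factors, and the transcripts of 8 of its subunits were followed here: FOS, FOSB, FOSL1, FOSL2, JUN, JUNB, JUND and ATF3. They were taken by gene symbol, matched to the Ensembl identifiers of the deposited tables. All 8 were found among the 58302 genes of the count table, and all 8 passed the filter on low counts that left 18035 genes for testing. RNA was sequenced from NCI-H226, a human mesothelioma line with a null NF2 genotype that is sensitive to the TEAD inhibitor GNE-7883, and from its resistant derivative NCI-H226_CL3. The 4 groups of 3 libraries were sensitive cells with GNE-7883, sensitive cells with DMSO (the vehicle), resistant cells with GNE-7883 and resistant cells with DMSO. NCI-H226_CL3 was selected by stepwise exposure to a TEAD inhibitor, beginning at 0.25 µM and ending at 3 µM, and no other resistant line was profiled, so each contrast of the lines compares 1 resistant line with 1 sensitive line. All groups share the NF2-null background and RPMI medium with serum, and neither dose nor length of the final GNE-7883 exposure is stated in the labels. The study asked how cells acquire resistance to TEAD inhibition.

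An AP-1 dimer forms when the leucine zippers of 2 subunits coil around each other and the adjoining basic regions grip DNA. JUN proteins pair with each other or with FOS proteins, FOS proteins need a JUN partner, and ATF3 pairs with JUN proteins or with itself. The dimers bind the TPA response element TGACTCA and, in some pairings, the cAMP response element TGACGTCA. FOS, FOSB, JUNB and ATF3 are classical immediate early or stress-inducible genes with short-lived transcripts, whereas FOSL1 (which encodes FRA-1) and FOSL2 (FRA-2) are associated with sustained ERK signalling. In several cancer cell types AP-1 occupies enhancers together with TEAD and its coactivator YAP, the protein complex that GNE-7883 targets. RNA levels give neither protein amounts nor which dimers formed.

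Total counts ran from 31878934 to 46962645 per library. One library stood apart: replicate 2 of the sensitive cells in DMSO differed from its group's replicates 1 and 3 by a chi-square per degree of freedom of 39.4 and 45.5, whereas the other pairs within a group lay between 3.33 and 11.3. Where leaving it out changed a member's call or turned an order of levels or shares, the value without it is given. NF2 had 15 counts over all 12 libraries. The labels give lung epithelium as tissue and mesothelioma as cell type; 13 of 14 mesothelial markers reached 5 CPM (counts scaled to the library total) in every group, and 0 of 10 alveolar and airway markers did so, with NKX2-1 at 2 counts in all. Single mesothelial markers went both ways in sensitive cells. KRT7 had 2818 CPM under GNE-7883 and 4205 CPM in DMSO, and KRT8 and KRT18 were also lower under GNE-7883. CALB2 had 1672 CPM under GNE-7883 and 1125 CPM in DMSO, and UPK3B and LRRN4 were also higher under GNE-7883. The summed level of the 14 mesothelial markers moved with the groups, from 12001 to 12417 CPM over the libraries of sensitive cells under GNE-7883, 15178 to 18290 CPM in sensitive cells in DMSO, 8432 to 9479 CPM in resistant cells under GNE-7883 and 7128 to 8419 CPM in resistant cells in DMSO. Of 5 endothelial markers only the receptor gene KDR reached 5 CPM, at 185, 54.5, 31.6 and 21.4 CPM in the same order of groups, of 5 fibroblast markers COL1A1 did so in every group and PDGFRA in sensitive cells under GNE-7883 (16.6 CPM), and of 5 blood markers CD14 did so in that group alone (5.53 CPM), with CD3E at 0 counts in all libraries. The part of these marker levels in the results on AP-1 genes was not tested.

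In the GRCh38 annotation of GENCODE release 29 all 8 are protein-coding genes. Within the FOS family, FOS (ENSG00000170345) lies on chromosome 14 at 75278774 to 75282230, FOSB (ENSG00000125740) on chromosome 19 at 45467995 to 45475179, FOSL1 (ENSG00000175592) on chromosome 11 at 65892049 to 65900573 and FOSL2 (ENSG00000075426) on chromosome 2 at 28392448 to 28417312. Within the JUN family, JUN (ENSG00000177606) lies on chromosome 1 at 58780788 to 58784327, JUNB (ENSG00000171223) on chromosome 19 at 12791496 to 12793315 and JUND (ENSG00000130522) on chromosome 19 at 18279760 to 18281622. ATF3 (ENSG00000162772) lies on chromosome 1 at 212565334 to 212620777. FOSL1, JUN and JUND are transcribed from the minus strand and the others from the plus strand. JUNB shares exon bases with HOOK2 on the opposite strand, and the library kit does not mark strand, so reads of that stretch cannot be told apart; HOOK2 had 254 to 416 counts per library and JUNB 311 to 995. FOSB lies within the span of ERCC1, and FOSL2 overlaps FLJ31356 and AC104695.3, without shared exon bases.

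AP-1 genes are known to be regulated in part by AP-1 itself, so the RefSeq promoter windows (GRCh38.p14, 250 bases before to 50 after the transcript start) of 7 of the 8 genes were searched for AP-1 motifs; FOSL1 had none in the table used. Both strands were searched for TGACTCA, TGACGTCA and the related octamer TGACATCA, which occur in 4.95%, 1.85% and 2.61% of 35116 windows of the same length and do not overlap one another in these windows. The 4 windows with a match are shown: JUN and ATF3 share an octamer, and JUND and FOSL2 carry other motifs. A link of these motifs to the changes below was not tested. FOSB, called higher in resistant cells like JUN and ATF3, had no match. Letters run 5′ to 3′ on the gene's strand, capitals mark the match, and each stretch ends at the base before the RefSeq start, except for FOSL2, which ends with its match. JUN (chr1:58784048-58784297, minus strand) has TGACATCA beginning at position -67 from the start, ATF3 (chr1:212565157-212565406, plus) has it at -123, JUND (chr19:18281623-18281872, minus) has TGACGTCA at -200, and FOSL2 (chr2:28392608-28392868, plus) has TGACTCA from base 5 of the transcript.
JUN: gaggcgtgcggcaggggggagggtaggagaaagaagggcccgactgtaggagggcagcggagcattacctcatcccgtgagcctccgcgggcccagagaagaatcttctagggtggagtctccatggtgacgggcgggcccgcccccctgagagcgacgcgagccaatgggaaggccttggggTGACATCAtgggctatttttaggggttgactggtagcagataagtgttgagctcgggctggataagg
ATF3: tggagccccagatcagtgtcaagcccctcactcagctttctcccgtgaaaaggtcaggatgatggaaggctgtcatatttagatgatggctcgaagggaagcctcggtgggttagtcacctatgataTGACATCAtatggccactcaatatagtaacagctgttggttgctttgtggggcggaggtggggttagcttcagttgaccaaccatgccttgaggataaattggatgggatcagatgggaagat
JUND: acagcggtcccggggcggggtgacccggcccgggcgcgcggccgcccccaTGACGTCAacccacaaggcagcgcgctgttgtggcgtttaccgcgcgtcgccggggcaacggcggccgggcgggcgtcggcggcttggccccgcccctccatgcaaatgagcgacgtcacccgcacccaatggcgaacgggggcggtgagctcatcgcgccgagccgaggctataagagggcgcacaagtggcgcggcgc
FOSL2: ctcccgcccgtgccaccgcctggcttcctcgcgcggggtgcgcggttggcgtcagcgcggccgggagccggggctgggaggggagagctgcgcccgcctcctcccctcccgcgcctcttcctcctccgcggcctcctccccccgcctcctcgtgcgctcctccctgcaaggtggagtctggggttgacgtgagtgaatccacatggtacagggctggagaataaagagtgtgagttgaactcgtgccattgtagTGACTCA
The windows of FOS, FOSB, JUNB and a second ATF3 start held none of the 3 motifs. GGAATG, the core of the TEAD motif, occurs in 14.0% of all windows and the serum response element in 1.29%, and neither was found in the 8 windows of these genes. A match is a string of letters and not an occupied site, and its absence says nothing beyond these windows.

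Measured per length, as RPKM (reads divided by gene length and library total), the pool was led by FOSL1 in resistant cells and by FOSL2 or JUN in sensitive cells. This change of leader depends on the division by length: as shares of counts, FOSL2 was the largest in each group, at 63.6% in sensitive cells under GNE-7883 and 49.1% in sensitive cells in DMSO, and at 34.5% in resistant cells under GNE-7883 and 30.1% in resistant cells in DMSO. In sensitive cells under GNE-7883 the order was FOSL2 (47.8 ± 0.707 RPKM; SD, n = 3 here and below), JUN, JUND, JUNB, ATF3, FOSL1 (8.50 ± 0.495 RPKM), FOS and FOSB. In sensitive cells in DMSO JUN (43.8 ± 3.10 RPKM) and FOSL2 (41.0 ± 3.30 RPKM) led with overlapping libraries, and FOSL2 (42.9 RPKM) stood above JUN (42.0 RPKM) without replicate 2; they were followed by FOSL1 (26.1 ± 1.77 RPKM), JUND, ATF3, JUNB, FOS and FOSB. FOSL1 headed the order in resistant cells, at 70.4 ± 5.60 RPKM under GNE-7883 and 102 ± 1.56 RPKM in DMSO, with JUN and FOSL2 next in both. JUND stood above ATF3 in resistant cells under GNE-7883 and below it in resistant cells in DMSO, and JUNB, FOS and FOSB closed the order in both. Neighbours in these 4 orders did not overlap in their libraries, with 2 exceptions: JUN and FOSL2 in sensitive cells in DMSO, and FOS and FOSB in resistant cells in DMSO. FOS and FOSB were rare throughout, with 30 to 95 and 13 to 94 counts per library, so their values carry a large counting error.

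**Figure D1:**
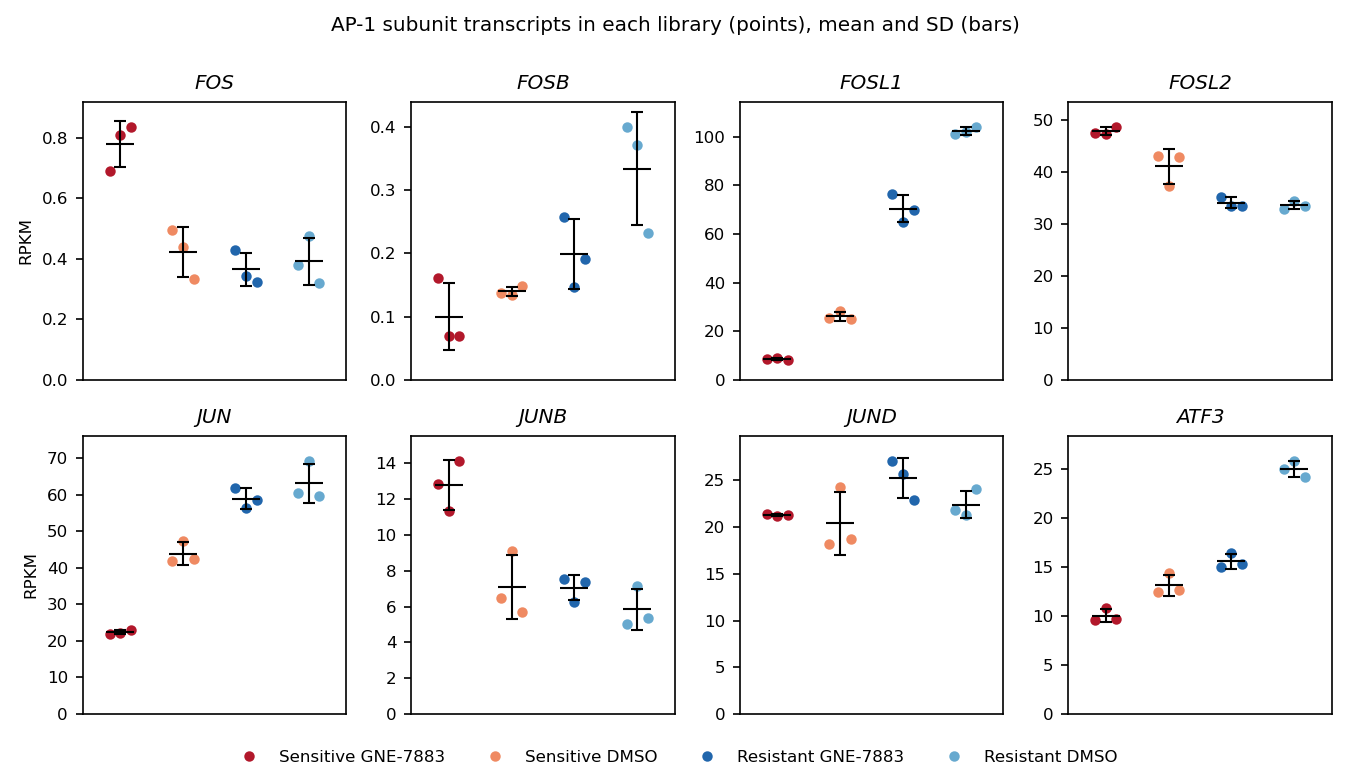
RPKM (vertical axes, each from 0 and on its own scale) of the 8 AP-1 subunit genes in every library; points are libraries, and bars give the mean and SD of the 3 libraries of a group. FOSL1 lay between 65.1 and 104 RPKM in the 6 resistant libraries and between 8.02 and 28.1 RPKM in the 6 sensitive libraries, and FOS was highest in the 3 sensitive libraries under GNE-7883.

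GNE-7883 moved the subunits of sensitive cells in both directions: FOSL1, JUN and ATF3 fell, and JUNB, FOS and FOSL2 rose. Thus 3 of 8 were called higher and 3 lower (edgeR's quasi-likelihood test over all genes, Benjamini-Hochberg adjusted p under 0.05), where 58.1% of all genes tested were called, 29.8% as higher and 28.4% as lower. The count of members is therefore close to that of genes at large, and the median log2 change was -0.16 over the 8 members and 0.02 over all genes. In bulk RNA, fewer cells of a type and less RNA per cell cannot be told apart.

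In the FOS family, FOSL1 had 8.47, 9.01 and 8.02 RPKM in sensitive cells under GNE-7883, against 25.2, 28.1 and 24.9 RPKM in sensitive cells in DMSO. All treated libraries lay far below all vehicle libraries, a log2 fold change of -1.62 ± 0.075 (SE; adjusted p = 5.29e-11). FOSL2 had 47.5, 47.3 and 48.6 RPKM under GNE-7883, against 42.9, 37.2 and 42.9 RPKM in DMSO. The groups did not overlap, but the rise was small, at 0.22 ± 0.061 (adjusted p = 0.00512), and 0.15 ± 0.043 (adjusted p = 0.00607) without replicate 2 of the vehicle group, its lowest library. FOS, the prototype immediate early gene, had 0.691, 0.81 and 0.835 RPKM under GNE-7883, against 0.494, 0.437 and 0.334 RPKM in DMSO. Its treated libraries held 75 to 95 counts and its vehicle libraries 37 to 65, without overlap, and the rise was 0.87 ± 0.18 on the log2 scale (adjusted p = 0.000593). FOSB had 0.161, 0.0688 and 0.0698 RPKM under GNE-7883, against 0.137, 0.135 and 0.148 RPKM in DMSO. One treated library lay above the vehicle group and the others below it, and the change was not called (-0.48 ± 0.35, adjusted p = 0.256); without that library, replicate 1, it was -1.002 ± 0.36 (adjusted p = 0.0299).

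In the JUN family, JUN, the main partner of FOS proteins, had 22.0, 22.1 and 22.9 RPKM in sensitive cells under GNE-7883, against 41.7, 47.4 and 42.3 RPKM in DMSO. The treated libraries were tightly grouped and well below the vehicle libraries, a log2 fold change of -0.97 ± 0.069 (adjusted p = 7.72e-09). JUNB, a weaker activator that can restrain JUN, had 12.8, 11.3 and 14.1 RPKM under GNE-7883, against 6.48, 9.11 and 5.72 RPKM in DMSO. It rose by 0.85 ± 0.15 (adjusted p = 0.000211), and by 1.06 ± 0.13 (adjusted p = 4.46e-07) without replicate 2 of the vehicle group, its highest library there. JUND, the most constitutively expressed of the family, had 21.4, 21.2 and 21.3 RPKM under GNE-7883, against 18.2, 24.3 and 18.8 RPKM in DMSO. The one vehicle library above the treated ones was again replicate 2, and the change of 0.06 ± 0.095 was not called (adjusted p = 0.584), but was 0.20 ± 0.070 (adjusted p = 0.0202) without it. ATF3, a stress-inducible partner of JUN, had 9.58, 10.8 and 9.70 RPKM under GNE-7883, against 12.4, 14.4 and 12.6 RPKM in DMSO. It fell without overlap, by 0.39 on the log2 scale (SE 0.070, adjusted p = 0.000178). Thus 6 of 8 members did not overlap between the groups, as was the case for 61.6% of all genes.

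In resistant cells GNE-7883 lowered FOSL1 and ATF3, and the other 6 subunits did not pass the test. That is 0 of 8 called higher and 2 of 8 lower, where 9.22% of all genes were called, 5.25% as higher and 3.97% as lower. Of 8 members, 2 did not overlap between the groups, where 30.9% of all genes did not. The median log2 change was -0.11 over the members and -0.0028 over all genes. The count over all genes, 1663, rested on single libraries: it was 3060 without replicate 2 of the sensitive cells in DMSO, 861 and 950 without replicate 1 or 3 of the resistant cells in DMSO, and 984 and 854 without replicate 1 or 3 of the resistant cells under GNE-7883.

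FOSL1 had 76.2, 65.1 and 69.8 RPKM in resistant cells under GNE-7883, against 101, 101.8 and 104 RPKM in resistant cells in DMSO. It fell by 0.54 on the log2 scale (SE 0.068, adjusted p = 9.93e-05), yet its lowest treated library stayed above the highest library of sensitive cells in DMSO (28.1 RPKM). ATF3 had 15.0, 16.5 and 15.3 RPKM under GNE-7883, against 25.0, 25.8 and 24.2 RPKM in DMSO. The groups were well apart, with a log2 fold change of -0.68 ± 0.068 (adjusted p = 1.04e-05). JUN had 61.9, 56.3 and 58.5 RPKM under GNE-7883, against 60.4, 69.1 and 59.7 RPKM in DMSO. The libraries overlapped, and the log2 fold change was -0.10 ± 0.068 (adjusted p = 0.428). FOSL2 had 35.2, 33.4 and 33.4 RPKM under GNE-7883, against 32.9, 34.4 and 33.4 RPKM in DMSO, also overlapping (0.02 ± 0.061, adjusted p = 0.910). JUNB had 7.53, 6.24 and 7.35 RPKM under GNE-7883, against 5.04, 7.15 and 5.36 RPKM in DMSO (0.26 ± 0.16, adjusted p = 0.382), and JUND had 27.1, 25.7 and 22.9 RPKM under GNE-7883, against 21.9, 21.3 and 24.1 RPKM in DMSO (0.17 ± 0.094, adjusted p = 0.316). The libraries of both genes overlapped between the groups. FOS had 0.428, 0.343 and 0.324 RPKM under GNE-7883, against 0.378, 0.475 and 0.32 RPKM in DMSO (-0.11 ± 0.20, adjusted p = 0.817). FOSB had 0.257, 0.147 and 0.191 RPKM under GNE-7883, against 0.4, 0.371 and 0.232 RPKM in DMSO. Its treated group was lower on average but overlapped, and the change of -0.76 ± 0.26 missed the threshold (adjusted p = 0.0864); it passed without replicate 2 of the sensitive cells in DMSO (adjusted p = 0.0406), without replicate 3 of the resistant cells in DMSO (-0.93 ± 0.26, adjusted p = 0.0475), and with no filter on low counts (adjusted p = 0.00568).

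The response itself was tested for a difference between the lines, as the log2 change in resistant cells minus that in sensitive cells. It was called for 4 of 8 members, 2 with a positive and 2 with a negative difference, where 35.7% of all genes were called, 19% positive and 16.7% negative. The fall of FOSL1 was smaller in resistant cells (-0.54, against -1.62 in sensitive cells; difference 1.08 ± 0.10, adjusted p = 7.00e-07). The change of JUN was -0.10 in resistant cells, against -0.97 in sensitive cells (difference 0.87 ± 0.097, adjusted p = 4.36e-06). For FOS the change was -0.11 in resistant cells, against 0.87 in sensitive cells (difference -0.98 ± 0.27, adjusted p = 0.00971). ATF3 went the other way from FOSL1, with a larger fall in resistant cells (-0.68, against -0.39; difference -0.29 ± 0.097, adjusted p = 0.0271). That call is fragile: it was lost with no filter on low counts (adjusted p = 0.124) and in 8 of the 12 fits that left out 1 library (adjusted p from 0.0612 to 0.111), although without replicate 2 of the sensitive cells in DMSO it was -0.35 ± 0.083 (adjusted p = 0.00210). JUNB just missed the threshold at -0.59 ± 0.22 (adjusted p = 0.0516) and was called without that library (-0.79 ± 0.17, adjusted p = 0.000871). FOSL2 (-0.20 ± 0.086, adjusted p = 0.0757), FOSB (-0.29 ± 0.44, adjusted p = 0.654) and JUND (0.11 ± 0.13, adjusted p = 0.576) were not called.

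**Figure D2:**
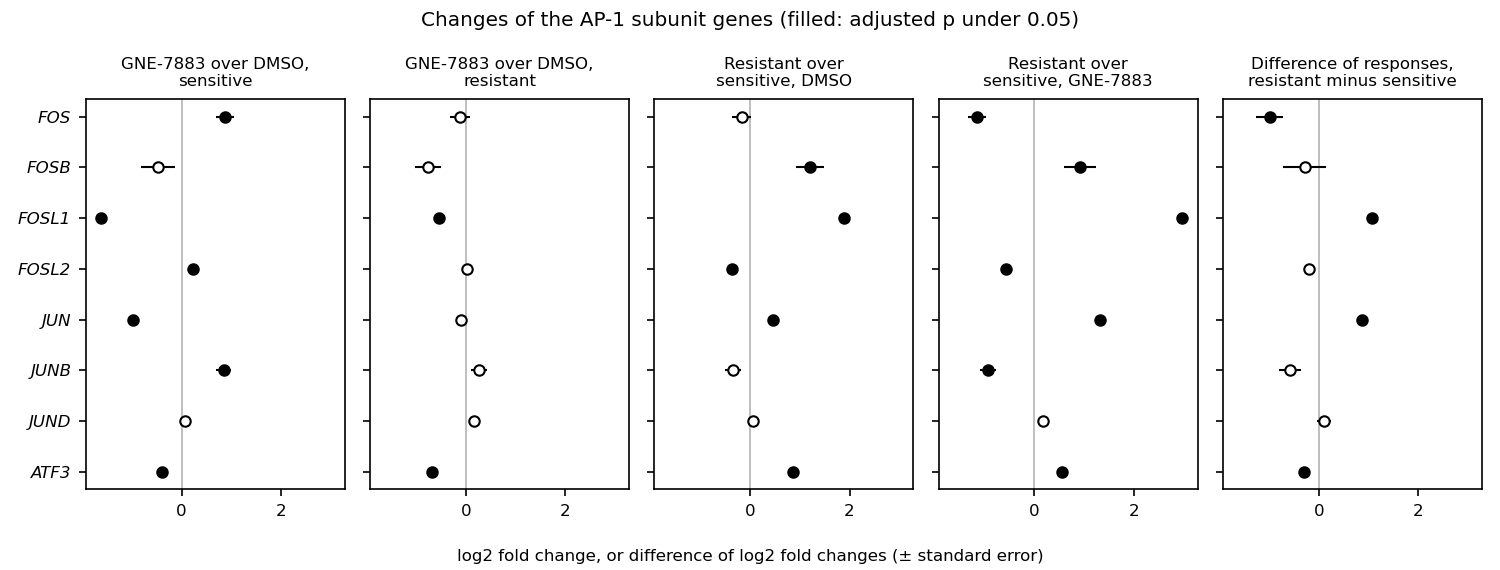
Log2 fold changes of the 8 AP-1 subunit genes in 4 comparisons and, at the right, the difference of the responses to GNE-7883; points are edgeR estimates, bars are standard errors, and filled points have an adjusted p under 0.05. FOSL1 lay at -1.62 under GNE-7883 in sensitive cells and at -0.54 in resistant cells, and at 1.90 and 2.97 between the lines in DMSO and in GNE-7883.

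Between the lines in DMSO, resistant cells had more FOSL1, FOSB, ATF3 and JUN and less FOSL2. These are 4 of 8 called higher and 1 lower, where 48.7% of all genes were called, 24.2% as higher and 24.4% as lower; 5 of 8 members did not overlap, where 53.9% of all genes did not. The median log2 difference was 0.26 over the members and -0.0020 over all genes. This comparison shares its vehicle libraries with those above.

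FOSL1 averaged 102 ± 1.56 RPKM in resistant cells in DMSO and 26.1 ± 1.77 RPKM in sensitive cells in DMSO, a log2 fold change of 1.90 ± 0.071 (adjusted p = 3.79e-12). The next largest difference was that of FOSB, 0.334 ± 0.0899 RPKM in resistant cells and 0.140 ± 0.00717 RPKM in sensitive cells (1.21 ± 0.28, adjusted p = 0.00195), on low counts. ATF3 averaged 25.0 ± 0.812 RPKM in resistant cells and 13.1 ± 1.07 RPKM in sensitive cells (0.86 ± 0.068, adjusted p = 3.74e-08). JUN averaged 63.1 ± 5.27 RPKM in resistant cells and 43.8 ± 3.10 RPKM in sensitive cells (0.45 ± 0.068, adjusted p = 4.42e-05). FOSL2, the other FRA protein gene, went the opposite way to FOSL1, with 33.5 ± 0.783 RPKM in resistant cells and 41.0 ± 3.30 RPKM in sensitive cells (-0.36 ± 0.061, adjusted p = 0.000121). JUNB (5.85 ± 1.14 RPKM in resistant cells and 7.11 ± 1.78 RPKM in sensitive cells) was not called (-0.35 ± 0.16, adjusted p = 0.0847), and its difference was -0.13 ± 0.13 (adjusted p = 0.434) without replicate 2 of the sensitive group. It passed without replicate 3 of that group (-0.47, adjusted p = 0.0230), without replicate 2 of the resistant group (-0.53, adjusted p = 0.0137) and with no filter on low counts (adjusted p = 0.00153). FOS was not called (-0.17 ± 0.20, adjusted p = 0.499), and neither was JUND (0.06 ± 0.094, adjusted p = 0.627), which passed without replicate 2 of the sensitive group (0.20 ± 0.070, adjusted p = 0.0211).

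Under GNE-7883 FOSL1, JUN, ATF3 and FOSB were higher in resistant cells and FOS, JUNB and FOSL2 lower. By the test of the responses above, the difference between the lines was wider under GNE-7883 than in DMSO for FOSL1, JUN and FOS and narrower for ATF3, and that of FOSB was 0.92 under GNE-7883 and 1.21 in DMSO. Here 4 of 8 were called higher and 3 lower, where 61.9% of all genes were called, 30.7% as higher and 31.1% as lower, and 7 of 8 members did not overlap, where 69.5% of all genes did not. The median log2 difference was 0.36 over the members and -0.01 over all genes. FOSL1 averaged 70.4 ± 5.60 RPKM in resistant cells and 8.50 ± 0.495 RPKM in sensitive cells, with a log2 fold change of 2.97 ± 0.076 on TMM-scaled counts (7.85-fold, adjusted p = 2.98e-14). JUN averaged 58.9 ± 2.81 RPKM in resistant cells and 22.3 ± 0.490 RPKM in sensitive cells (1.32 ± 0.070, adjusted p = 1.23e-10), and ATF3 15.6 ± 0.779 RPKM in resistant cells and 10.0 ± 0.661 RPKM in sensitive cells (0.56 ± 0.070, adjusted p = 3.33e-06). FOS was lower in resistant cells (-1.16 ± 0.18, adjusted p = 4.63e-05), as were JUNB (-0.94 ± 0.15, adjusted p = 6.94e-05) and FOSL2 (-0.57 ± 0.061, adjusted p = 6.11e-07). FOSB was called higher (0.92 ± 0.33, adjusted p = 0.0226) although its libraries overlapped, and the call was lost without replicate 2 or 3 of the sensitive cells or replicate 1 of the resistant cells under GNE-7883 (adjusted p from 0.0919 to 0.108), while without replicate 1 of the sensitive cells under GNE-7883 the difference was 1.45 ± 0.34. JUND differed by 0.17 ± 0.094 and was not called (adjusted p = 0.137); it passed without replicate 2 of the sensitive cells in DMSO (0.18 ± 0.061, adjusted p = 0.0150), without replicate 3 of the resistant cells under GNE-7883 (0.26 ± 0.10, adjusted p = 0.0353) and with no filter on low counts (0.21 ± 0.078, adjusted p = 0.0231).

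As a pool, the summed RPKM of the 8 subunits was 124 ± 1.66 in sensitive cells under GNE-7883 and 152 ± 7.71 in sensitive cells in DMSO, and 212 ± 10.5 in resistant cells under GNE-7883 and 253 ± 6.93 in resistant cells in DMSO. The 4 groups did not overlap. FOSL1 supplied 6.88 ± 0.477% of the pool in sensitive cells under GNE-7883 and 17.1 ± 0.309% in sensitive cells in DMSO, and 33.2 ± 1.12% in resistant cells under GNE-7883 and 40.5 ± 1.22% in resistant cells in DMSO. FOSL2 supplied 38.7 ± 0.0910% and 27.1 ± 3.44% in the same 2 sensitive groups and 16.1 ± 0.321% and 13.3 ± 0.0538% in the resistant ones. Shares of 1 sum are tied to each other: in resistant cells the share of FOSL2 was higher under GNE-7883 although its level was 34.0 ± 1.05 RPKM there and 33.5 ± 0.783 RPKM in DMSO, with overlapping libraries. Without replicate 2 of the sensitive cells in DMSO, that group's share of FOSL2 was 29.1%, above that of JUN (28.5%), and its FOS family and JUN family held 46.4% and 45.1% of the pool, against 44.6% and 46.8% with it. The ratio of FOSL1 to FOSL2 RPKM was 0.178 in sensitive cells under GNE-7883 and 0.641 in sensitive cells in DMSO, and 2.07 in resistant cells under GNE-7883 and 3.05 in resistant cells in DMSO.

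The share of JUN was 18.1 ± 0.160% in sensitive cells under GNE-7883 and 28.8 ± 0.592% in sensitive cells in DMSO, while in resistant cells it was 27.8 ± 0.283% under GNE-7883 and 24.9 ± 1.45% in DMSO. JUN transcripts were therefore more abundant but a smaller part of the pool in resistant than in sensitive cells in DMSO; with shares of counts not divided by length this order turned round (29.4% in resistant and 27.3% in sensitive cells). JUNB supplied 10.3 ± 1.02% in sensitive cells under GNE-7883 and 4.64 ± 0.917% in sensitive cells in DMSO, against 3.32 ± 0.241% in resistant cells under GNE-7883 and 2.31 ± 0.383% in resistant cells in DMSO. JUND supplied 17.2, 13.4, 11.9 and 8.88% and ATF3 8.11, 8.63, 7.39 and 9.89% in the same order of groups, and FOS and FOSB together stayed under 1% in every group. For ATF3 under GNE-7883 the libraries of the lines overlapped in this share. On counts not divided by length its order also turned round, with 5.92% in resistant and 4.98% in sensitive cells. The share of the FOS family as a whole varied less than those of FOSL1 and FOSL2, at 46.3 ± 0.396%, 44.6 ± 3.18%, 49.6 ± 0.848% and 54.0 ± 1.23% in that order of groups. The order of the lines in this family share depends on the division by length. On counts not divided by length it was larger in sensitive than in resistant cells, both under GNE-7883 and in DMSO. Under GNE-7883 FOSL2 and FOSL1 then held 63.6% and 3.06% in sensitive cells, against 34.5% and 19.3% in resistant cells. Of 52 comparisons of shares, sums and ratios between groups, those without overlap reached an exact two-sided permutation p of 0.1, the smallest that 3 against 3 libraries allow, and 0.124 after adjustment over the 52, so that no share passes a threshold of 0.05. The share of FOSL1 with another length or another pool kept the order of the 4 groups.

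**Figure D3:**
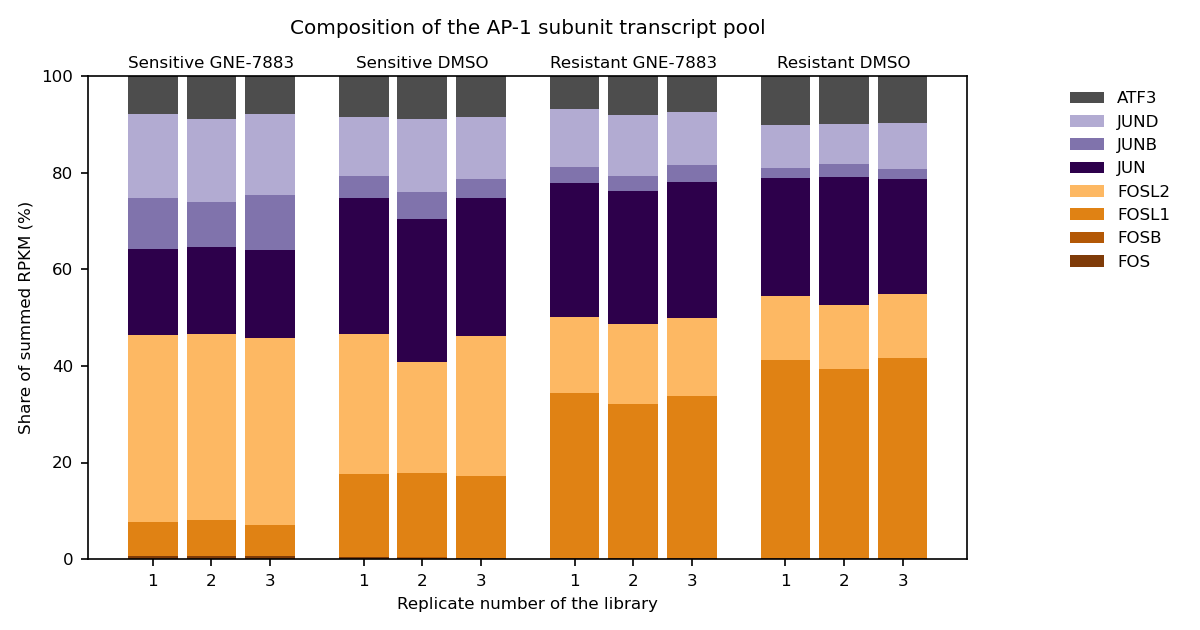
Composition of the AP-1 subunit transcript pool: each bar is 1 library, its segments are the percentages of the summed RPKM of the 8 genes, and the libraries stand in their 4 groups with replicate numbers beneath. The FOSL1 segment averages 6.88% in sensitive cells under GNE-7883 and 40.5% in resistant cells in DMSO, and the FOSL2 segment 38.7% and 13.3% in the same groups.

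Other leucine zipper factors, among them partners of AP-1 subunits, were tested for 17 of 18. In this and the following lists, counts of called genes are to be read against the shares of all genes called: 58.1% for GNE-7883 in sensitive cells, 9.22% for GNE-7883 in resistant cells, 48.7% between the lines in DMSO, 61.9% between the lines under GNE-7883 and 35.7% for the difference of responses. In sensitive cells under GNE-7883, 6 rose and 4 fell (median log2 change 0.05), a share near that of all genes; in resistant cells 1 rose and 5 fell (median -0.07), and 3 in all were called without replicate 1 of the resistant cells in DMSO. MAF, a large MAF-family factor, averaged 178 CPM in sensitive cells under GNE-7883 and 43.2 CPM in sensitive cells in DMSO, and rose by 2.05 ± 0.064 (adjusted p = 7.11e-13). It was the 1 gene of the list that rose in resistant cells, with 18.8 CPM under GNE-7883 and 9.33 CPM in DMSO (1.01 ± 0.070, adjusted p = 3.28e-07), a smaller response (difference -1.04 ± 0.094, adjusted p = 5.04e-07), and it was lower in resistant than in sensitive cells in DMSO (-2.21 ± 0.070). JDP2, a repressor that dimerises with JUN, fell in sensitive cells (-0.99 ± 0.089), as did NRL (-0.70 ± 0.16). DDIT3, which encodes the stress factor CHOP, fell in resistant cells (-0.69 ± 0.080), with 53.1 CPM under GNE-7883 and 85.7 CPM in DMSO, and so did the small MAF gene MAFF (-0.52 ± 0.070). Between the lines 7 were higher and 3 lower in resistant cells in DMSO, and 7 higher and 6 lower under GNE-7883; MAFF (1.24 ± 0.073 in DMSO) and MAFK (0.82 ± 0.12 under GNE-7883) were among the higher ones. The responses differed for 10 of the 17, among them NRL (1.15 ± 0.26) and MAFG (-0.78 ± 0.080).

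Immediate early genes, which are induced with FOS and JUN by serum and growth factors, were tested for 22 of 25. In sensitive cells under GNE-7883, 9 rose and 6 fell (median 0.18), where 58.1% of all genes were called, and in resistant cells 3 rose and 4 fell (median -0.06), where 9.22% were. Those 7 became 2, 3 and 4 without replicate 1, 2 or 3 of the resistant cells in DMSO and 4, 2 and 3 without replicate 1, 2 or 3 of the resistant cells under GNE-7883. The members that fell most in sensitive cells were CCN2 (8.49 CPM under GNE-7883 and 64.3 CPM in DMSO; -2.92 ± 0.061) and CCN1 (-1.31 ± 0.046), matricellular genes that are also YAP/TEAD targets, and MYC (-0.77 ± 0.056), whereas EGR1, IER2 and BTG2 were among those that rose. In resistant cells CCN2 (-0.56 ± 0.052) and CCN1 (-0.34 ± 0.045) fell and KLF2, a Krüppel-like factor, rose slightly (0.27 ± 0.082, adjusted p = 0.0480). In DMSO 13 were higher and 1 lower in resistant cells (median 0.33), led by KLF4 (1.84 ± 0.096), IER3 (1.08 ± 0.10) and CCN2 (0.67 ± 0.053), and under GNE-7883 10 were higher and 5 lower (median 0.30). The responses differed for 13, with CCN2 (2.36 ± 0.080), CCN1 (0.97 ± 0.063) and BTG2 (-0.63 ± 0.067) foremost.

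Kinases that phosphorylate AP-1 proteins or act upstream of such kinases, and factors of AP-1 protein turnover, were all tested (19 of 19). GNE-7883 raised 5 and lowered 5 in sensitive cells (median -0.04), not above the 58.1% of all genes called there, with falls of RPS6KA2, an RSK kinase (-0.57 ± 0.067), and MAP2K1, which encodes MEK1 (-0.53 ± 0.049). In resistant cells it raised 0 and lowered 2, MAP2K1 (-0.23 ± 0.049) and the JNK gene MAPK8 (-0.24 ± 0.065), and the count was 5 without replicate 2 of the sensitive cells in DMSO, 4 without replicate 2 and 0 without replicate 3 of the resistant cells under GNE-7883, and 1 without replicate 1 of that group, of the sensitive cells under GNE-7883 or of the resistant cells in DMSO, or without replicate 3 of the resistant cells in DMSO. In DMSO 11 were higher and 3 lower in resistant cells (median 0.22), among them RPS6KA2 (35.1 CPM in resistant and 15.9 CPM in sensitive cells; 1.14 ± 0.063), while RPS6KA1 was lower (-0.56 ± 0.060). Under GNE-7883 10 were higher and 3 lower (median 0.18), and the responses differed for 7.

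Textbook AP-1 target genes, 25 of 28 tested, did not move one way with GNE-7883. In sensitive cells 9 rose and 9 fell (median 0.02): the cytokine gene IL11 fell to 2.04 CPM under GNE-7883, against 8.68 CPM in DMSO (-2.08 ± 0.13), and the chromatin protein gene HMGA1 fell (-0.82 ± 0.075), but the chemokine gene CXCL8 rose to 72.8 CPM under GNE-7883, against 17.3 CPM in DMSO (2.07 ± 0.097). In resistant cells 4 rose and 3 fell (median -0.03), with TIMP1 (0.50 ± 0.087) and the integrin gene ITGA2 (0.39 ± 0.12) higher and the EGFR ligand gene HBEGF (-0.47 ± 0.055) lower; the count was 12 without replicate 2 of the sensitive cells in DMSO and 4 without replicate 1 of the resistant cells in DMSO. Between the lines in DMSO 19 were higher and 3 lower in resistant cells, with a median of 0.81 where that of all genes was -0.0020. The list was chosen with earlier results of these data known, so these values are a description only. HMGA2 had 77.9 CPM in resistant cells in DMSO and 2.21 CPM in sensitive cells in DMSO (5.13 ± 0.087), and ITGA2 was also higher (1.95 ± 0.13), but IL6, a classical AP-1 responsive cytokine gene, was lower, with 3.56 CPM in resistant and 21.3 CPM in sensitive cells (-2.57 ± 0.11). Under GNE-7883 15 were higher and 5 lower (median 0.74), IL11 among the higher (2.87 ± 0.13). The responses differed for 12, among them CXCL8 (-2.44 ± 0.14), IL11 (1.76 ± 0.17) and VEGFA (-0.82 ± 0.085).

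For comparison, the direct YAP/TEAD target list gave 2 higher and 17 lower of 22 in sensitive cells under GNE-7883 (median -0.76) and 0 higher and 8 lower in resistant cells (median -0.18). CCN2, F3 (the tissue factor gene; -2.81 ± 0.057) and ANKRD1 (-2.60 ± 0.11) fell most in sensitive cells, and F3 (-0.62 ± 0.052) and ANKRD1 (-0.73 ± 0.11) also fell in resistant cells. In DMSO 10 were higher and 10 lower in resistant cells, under GNE-7883 16 were higher and 4 lower, and the responses differed for 18. The 8 targets lower in resistant cells were also lower in sensitive cells. Of all genes, 3.97% were called lower in resistant and 28.4% in sensitive cells, and the share lower in both was not computed. FOSL1 and ATF3 also fell in both lines. The difference of responses was positive for FOSL1 and for 17 targets, and negative for ATF3 and for 1 target. The number of targets called in resistant cells ran from 7 to 12 with a library left out.

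**Figure D4:**
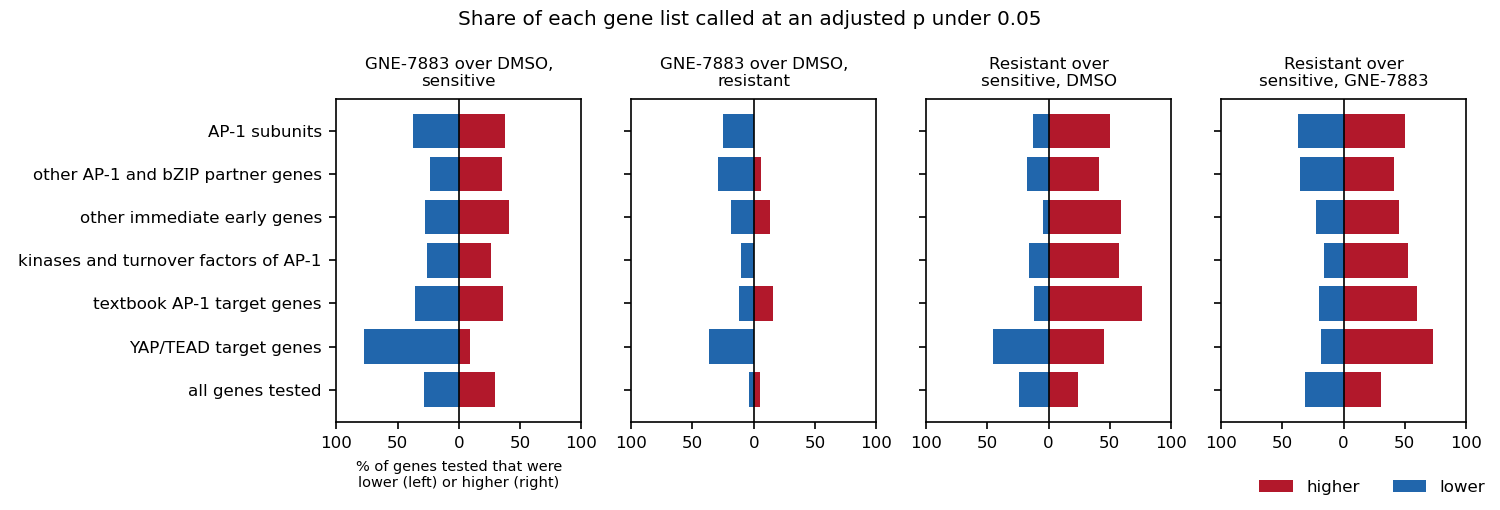
Percentage of the tested genes of each list that were called higher (right, red) or lower (left, blue) in 4 comparisons, with the 8 AP-1 subunits at the top and all 18035 genes tested at the bottom of each panel. In resistant against sensitive cells in DMSO, 19 of 25 AP-1 target genes lie on the higher side, where 24.2% of all genes do. The lists were chosen with earlier results of these data known.

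Across the 12 libraries the subunits fell into opposed patterns, given here as a description over libraries that share lines and treatments. On the log2 CPM scale FOSL1 followed JUN (Pearson r 0.967) and ATF3 (0.901) and ran opposite to FOSL2 (-0.961), FOS (-0.853) and JUNB (-0.856), and JUND correlated with FOSL1 by 0.258. Among 2784 genes that reached 5 CPM in a group and had group means spanning at least 2-fold, those most like FOSL1 were ARHGDIB (r 0.998), MAPKAP1 (0.997) and MB21D2 (0.996), and those most like JUN were MCM7 (0.998), HMGA1 (0.996) and RANGAP1 (0.996). HMGA1 is also in the AP-1 target list above. Most like ATF3 were PPP1R15A (0.982), SNHG12 (0.975) and SESN2 (0.965), most like JUNB were CTSD (0.986), GAA (0.981) and PLD3 (0.976), and most like FOSL2 were PDE4D (0.992), FAM135A (0.991) and ACVR2B (0.990). For JUND the highest values were 0.652 for LINC02302, 0.650 for TIMP1 and 0.646 for PAK6. With 4 groups, many genes reach high values in this way.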

How the data were processed

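Single-end reads of 50 bases came from TruSeq RNA v2 libraries, per the labels' protocols. The submitters' processing notes name GSNAP, GRCh38.p10 and limma; the counting tool, annotation release and strand setting are not stated there. The authors deposited whole-number counts per Ensembl gene, not normalized, and RPKM values for the same 58302 genes; the RPKM library factors equalled the count totals. Symbols matched 57532 identifiers.

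Counts were tested with edgeR 4.0.16 (R 4.3.3): TMM scaling, filterByExpr, quasi-likelihood fits of all 12 libraries with a mean for each group, two-sided tests, Benjamini-Hochberg adjustment over 18035 genes in each of 5 comparisons, called under 0.05. The procedure was tried on simulated data in which few genes changed. That cannot show how it behaves when as many genes change as here. Group levels are TMM-scaled CPM or deposited RPKM; pool shares are each gene's part of the summed RPKM. A count of 0 allows up to 3 counts; such limits cover counting error only. From each list, the 3 called genes with the largest change at 5 CPM or more are named per comparison; EGR1 and IER2 were named after their values were seen, and some genes the rule names are not reported here. Alternatives were DESeq2 1.42.0, limma 3.58.1 voom, other scalings and filters, other lengths, a pool without ATF3, a replicate block and each library left out. No label says whether replicate libraries are separate cultures; p-values then reflect only the scatter among these libraries, possibly technical. Members and lists were chosen with earlier results of these data known.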

Additional observations from a re-analysis of the deposited data

Results flagged for a closer look

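For 4 subunits the response to GNE-7883 differed between the lines by the test of the difference itself (resistant minus sensitive, log2, edgeR's quasi-likelihood test with adjustment over all genes). FOSL1 had a difference of 1.08 (adjusted p = 7.00e-07) and JUN one of 0.87 (adjusted p = 4.36e-06), with a smaller fall of FOSL1 in resistant cells and, for JUN, a change there that was not called. FOS had a difference of -0.98 (adjusted p = 0.00971), from a change of -0.11 in resistant cells, which was not called, and 0.87 in sensitive cells, on 30 to 95 counts per library. ATF3 had a difference of -0.29 (adjusted p = 0.0271), in the opposite sense to FOSL1, and is the least stable of the 4. Such differences were called for 35.7% of all genes tested.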

How the results depend on the processing

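Of 750 member values under alternatives, 710 kept their direction and their side of the threshold, 21 passed it newly, 12 no longer passed it and 7 turned sign; the cause was not tested. None of the 7 was called as reported, and all arose with 1 library left out. Over such fits the log2 value ran from -0.011 to 0.20 for JUND and GNE-7883 in sensitive cells; in resistant cells from -0.24 to 0.065 for FOS and from -0.0023 to 0.038 for FOSL2; between the lines in DMSO from -0.0070 (and -0.0048) to 0.20 for JUND; and for the difference of responses from -0.50 to 0.24 for FOSB and from -0.023 to 0.21 for JUND. The share of FOSL1 was 3.06%, 8.44%, 19.3% and 24.8% on counts not divided by length (sensitive GNE-7883, sensitive DMSO, resistant GNE-7883, resistant DMSO), 7.49%, 18.7%, 35.9% and 44.9% without ATF3, and 18.1%, 34.8% and 41.9% in the last 3 with reference transcript lengths.

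For the response of resistant cells, genes called numbered 1663 of all genes and 854 to 3060 with a library left out. Across such fits the list of other leucine zipper factors gave 3 to 6, immediate early genes 2 to 9 (4 with no filter on low counts), kinases 0 to 5 (4 by DESeq2) and AP-1 targets 4 to 12. These list counts were added after seeing the data. Members lower in resistant cells in DMSO numbered 1 to 2 with a library left out and 2 with no filter, and members with a negative difference of responses 1 to 3. JUNB passed the test of the difference under 6 of the 7 alternatives that kept all libraries. With a filter of 5 CPM, FOS and FOSB could not be tested. No label says whether replicate numbers mark a batch. Libraries with the same number correlated in their deviations by -0.27 to 0.33 and others by -0.33 to 0.27. With 3 libraries per group these values cannot settle the question. With a replicate block no member call changed, the kinase list in resistant cells gave 1, and 807 higher and 565 lower genes were called there. Depth limits FOS and FOSB.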
